A study of Mus musculus with 12 samples.

Results

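The genes described here mark which transmitter a neuron uses and which calcium buffer it carries. They are Gad1, Gad2, Slc32a1, Slc17a6, Slc17a7, Slc5a7, Pvalb, Calb1 and Calb2, 9 genes in all. Where a gene had several probe sets, the one with the highest mean level was read. Of the 9, 8 had a probe set that the platform annotation pairs with that symbol alone, out of 12393 genes with such a probe set, and Slc17a7 was not analysed here. All 8 passed a filter that asked for a level above the array's own 40th percentile on at least 3 arrays, as did 8256 genes in all. Slc17a6 was above its percentile on 4 arrays and Calb2 on 3, which are named below.

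The tissue was striatum of C57Bl/6 mice. Control mice were compared with mutants that the labels call TIF-IAD1RCre, at 9 weeks and at 13 weeks of age. TIF-IA, encoded by Rrn3, is the factor that lets RNA polymerase I start ribosomal RNA synthesis, and Cre driven by the dopamine D1 receptor gene acts in only part of the striatal projection neurons. There were 4 groups with 3 mice each and 1 array per mouse. The series text names 3 mice in one place and a larger number of arrays per condition in another, and 3 per group were used here. The control genotype is not described further. The labels give medium spiny neurons as cell type beside the tissue, but the arrays also held markers of other cells. All 19 measured markers of medium spiny neurons passed the filter, as did 10 astrocyte, 11 microglia and 7 oligodendrocyte markers, so the RNA was read as that of whole tissue.

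As background, GABA is made from glutamate by 2 related enzymes, GAD67 (Gad1) and GAD65 (Gad2), and is loaded into synaptic vesicles by the vesicular transporter VGAT (Slc32a1). Nearly all striatal neurons are GABAergic, both the medium spiny projection neurons and most interneurons. Glutamate is loaded by VGLUT2 (Slc17a6), typical of thalamic and hypothalamic neurons, or by VGLUT1 (Slc17a7), typical of cortical ones, and both kinds of axon reach the striatum while their cell bodies lie outside it. Cholinergic interneurons take up choline through the high-affinity transporter encoded by Slc5a7. Calbindin (Calb1) fills most medium spiny neurons, parvalbumin (Pvalb) marks fast-spiking interneurons, and calretinin (Calb2) marks a sparse interneuron class as well as many neurons of neighbouring regions.

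Levels are log2 values, so that a difference of 1 is a 2-fold change. The 40th percentile of the arrays lay between 3.51 and 3.81, and values under it are called low. Rrn3 itself was 7.97 to 8.20 in controls and 6.90 to 6.96 in mutants at 9 weeks, a difference of -1.13 ± 0.18 (SE; adjusted p = 0.00748). At 13 weeks it was 7.54 to 8.04 in controls and 7.18 to 7.72 in mutants, and the difference of -0.35 ± 0.18 did not pass (adjusted p = 0.128). By Xist and a Y-linked gene, 1 of 3 mice was female in each group except the mutants of 13 weeks, where all 3 were. Control mouse 3 of 13 weeks stood apart. On its array, 559 genes (6.77% of those kept) lay at least 1 log2 unit above both other controls of that age, against 0.0484% to 1.6% on the other 11 arrays. Its beta-actin 3′ minus 5′ difference was the lowest, 0.82 against 1.05 to 1.96 elsewhere. For Gapdh that difference (-0.06) lay within the -0.20 to 0 of the other arrays. The Gapdh 3′ minus middle difference was the highest, 0.54 against 0.14 to 0.37. What these features contribute to the results was not tested. For the 8 listed genes tested, values without that array or with a term for sex are given where a call depends on them. Other genes named here were not read with a term for sex, so whether their calls depend on sex is not shown. All p-values measure the spread between these mice.

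Of the 3 genes of the GABAergic phenotype, 2 passed the test at 13 weeks, both lower, where 45.3% of all genes passed (21.9% lower). With 3 genes, that count is no result about the set. Slc32a1, the vesicular GABA transporter, fell 4.17-fold in the mutants and was lower in each mutant than in each control. Gad2 fell 1.96-fold with a call that depended on single arrays, and Gad1 gave different answers on its probe sets. At 9 weeks none of the 3 passed the test, where 5% of all genes did.

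For these 3 genes, the 250 bases upstream of each annotated start are shown, 5′ to 3′ on the coding strand, from RefSeq on GRCm38.p6. All lie on chromosome 2, at chr2:70561879-70562128 for Gad1, chr2:22622077-22622326 for Gad2 and chr2:158610508-158610757 for Slc32a1, on the plus strand. Capitals mark matches to the motifs named after them.
Gad1: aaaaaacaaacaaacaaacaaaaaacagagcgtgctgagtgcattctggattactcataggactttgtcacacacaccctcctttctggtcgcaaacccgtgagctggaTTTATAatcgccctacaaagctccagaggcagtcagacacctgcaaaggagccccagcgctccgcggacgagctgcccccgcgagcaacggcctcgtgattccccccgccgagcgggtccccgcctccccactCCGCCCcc
Gad2: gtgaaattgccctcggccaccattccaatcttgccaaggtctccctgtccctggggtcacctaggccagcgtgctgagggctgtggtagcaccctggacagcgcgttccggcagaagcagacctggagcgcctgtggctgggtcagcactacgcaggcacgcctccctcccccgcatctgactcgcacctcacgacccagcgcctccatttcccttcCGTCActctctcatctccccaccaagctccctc
Slc32a1: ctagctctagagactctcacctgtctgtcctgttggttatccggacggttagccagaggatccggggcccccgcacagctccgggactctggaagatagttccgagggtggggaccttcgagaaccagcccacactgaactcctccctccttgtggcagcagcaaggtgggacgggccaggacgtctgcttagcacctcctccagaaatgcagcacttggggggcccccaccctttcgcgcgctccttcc
On both strands, 3 motifs were searched, a TATA box (TATAAA), a GC box (GGGCGG) and a cAMP response element half-site (TGACG). The Gad1 window held the TATA box on the minus strand at -141 from the start, a motif found in 12.4% of 32851 windows of the same length, and the GC box near its start, also on the minus strand (32.7% of windows). The Gad2 window held the half-site at -33 on the minus strand (17.8% of windows). None of the 3 was in the Slc32a1 window. These are letter matches only. RefSeq windows were found for 7 of the 9 genes.

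Slc32a1 was measured at 11.39, 11.02 and 11.32 in the controls of 9 weeks and at 10.63, 10.75 and 10.60 in the mutants. Those groups did not overlap, yet the difference of -0.58 ± 0.33 (95% interval -1.30 to 0.13) did not pass (adjusted p = 0.333). At 13 weeks the controls stood at 10.94, 10.74 and 12.13 and the mutants at 8.92, 8.97 and 9.74, a difference of -2.06 ± 0.33 (adjusted p = 0.000331). The highest control was mouse 3, and without it the difference was -1.63 (adjusted p = 0.000185). A second Slc32a1 probe set read 2.44 to 3.20 on all 12 arrays, low throughout, and averaging it in gave -1.18 at 13 weeks, still past the test.

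Gad2, the synapse-enriched isoform of the GABA-synthesising enzyme, read 9.44, 9.44 and 8.15 in control mice, against 9.46, 8.86 and 8.72 in mutant mice at 9 weeks. The groups overlapped, and the difference was 0.0033 ± 0.37 (95% interval -0.80 to 0.80; adjusted p = 0.997). At 13 weeks it read 10.15, 9.61 and 9.06 in control mice, against 8.62, 8.41 and 8.87 in mutant mice. Every mutant lay below every control, with a difference of -0.97 ± 0.37 (adjusted p = 0.0476). The call held in only 3 of 12 fits that left out 1 array, those without control mouse 3 or mutant mouse 1 of 9 weeks or control mouse 3 of 13 weeks. Without any of the other 9 arrays the adjusted p ran from 0.0508 to 0.154. With a term for sex the difference was -0.65 (adjusted p = 0.196).

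Gad1, whose product makes most of the brain's GABA, read 13.02, 12.68 and 12.90 in control mice, against 13.15, 13.02 and 12.55 in mutant mice at 9 weeks. At 13 weeks it read 13.17, 12.76 and 12.10 in control mice, against 12.75, 12.79 and 12.68 in mutant mice. The groups overlapped at both ages, with differences of 0.04 ± 0.25 (95% interval -0.50 to 0.58; adjusted p = 0.957) and 0.06 ± 0.25 (95% interval -0.48 to 0.61; adjusted p = 0.851). Centring the arrays on their medians turned the 13-week difference to -0.10.

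A second Gad1 probe set gave another picture. It read 12.06, 11.96 and 11.90 in control mice, against 11.72, 11.77 and 11.30 in mutant mice at 9 weeks, and 11.88, 11.58 and 12.61 in control mice, against 11.33, 11.12 and 11.43 in mutant mice at 13 weeks. All mutants lay below all controls of their age. The difference was -0.38 at 9 weeks (adjusted p = 0.412) and -0.73 ± 0.24 at 13 weeks (adjusted p = 0.0278), in a fit of each probe set on its own. On control mouse 3 of 13 weeks the Gad1 probe sets moved in opposite directions. The set used above read 12.10 there, under the 12.55 to 13.17 of the other 11 arrays, while the second read 12.61, over their 11.12 to 12.06. Without this array the main probe set gave -0.23 at 13 weeks (adjusted p = 0.366). The second probe set was not refitted without it. There the other controls of 13 weeks (11.88 and 11.58) still lay above all mutants of that age (11.12 to 11.43). With all arrays, whether Gad1 RNA fell at 13 weeks therefore depended on which probe set was read. The gap between the probe sets rested in part on this 1 array.

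**Figure D1:**
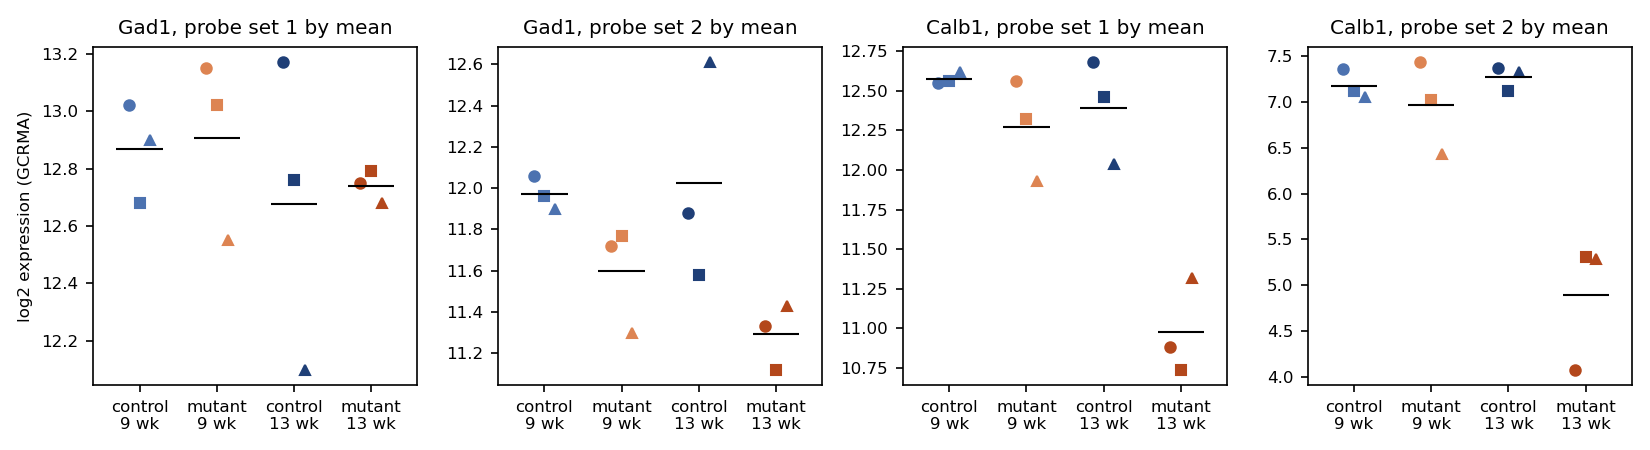
Log2 levels of Gad1 and Calb1 on each of their probe sets in the 4 groups, with circles, squares and triangles for mice 1, 2 and 3, bars for group means and a separate y scale in each panel. The second Gad1 probe set was lower in each mutant than in each control of its age, which the first was not, and control mouse 3 of 13 weeks was the lowest array on the first (12.10) and the highest on the second (12.61).

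Around these genes, 12 of 16 listed genes of GABA synthesis, transport and chloride balance were measured and 9 passed the filter. None of the 9 passed limma's test at 9 weeks (3 at an unadjusted p under 0.05). At 13 weeks 2 rose and 4 fell, with a median difference of -0.26 against 0.0033 over all genes tested, of which 45.3% passed (23.4% higher, 21.9% lower). The 2 that rose were Slc38a3, a glutamine transporter of astrocytes (1.76 ± 0.32; adjusted p = 0.000962), and Slc12a2, the chloride importer NKCC1 (1.25 ± 0.33; adjusted p = 0.00848). Slc12a5, the neuronal chloride exporter KCC2, fell by 1.14 (adjusted p = 0.00573) although its groups overlapped. Gphn, which encodes gephyrin, the scaffold of inhibitory synapses, fell by 0.85 (adjusted p = 0.000316). Slc1a1, a neuronal glutamate transporter that feeds GABA synthesis, fell by 1.98 (adjusted p = 5.48e-05), and Nsf, the vesicle fusion ATPase, fell by 1.25 (adjusted p = 0.000815). Abat, the enzyme that breaks GABA down, differed by -0.0067 (adjusted p = 0.979).

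In the mutants of 13 weeks the whole tissue had also shifted. Of 19 markers of medium spiny neurons 17 fell, with a median of -2.17, where 21.9% of all genes fell. In contrast, 9 of 10 astrocyte markers (median 1.56) and 11 of 11 microglia markers (median 2.60) rose, where 23.4% of all genes rose. The log2 of the summed astrocyte signal was 14.2 to 14.5 in controls of that age and 15.4 in all 3 mutants, and that of microglia 12.8 to 13.2 and 15.3 to 15.7. In RNA from whole tissue, fewer cells of a type and less RNA per cell cannot be told apart. The part of the glial shift in the falls of the listed genes was not tested.

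Calb1, calbindin, fell too. It was reduced 2.66-fold in the 13-week mutants and lower in each of them than in any other array of the study. The values were 12.55, 12.56 and 12.62 in the controls of 9 weeks and 12.56, 12.32 and 11.93 in the mutants, overlapping groups with a difference of -0.31 ± 0.22 (95% interval -0.78 to 0.17; adjusted p = 0.464). At the later age calbindin RNA stood at 12.68, 12.46 and 12.04 in control mice, against 10.88, 10.74 and 11.32 in mutant mice, a difference of -1.41 ± 0.22 (adjusted p = 0.000265). The second Calb1 probe set read 7.05 to 7.37 in all controls and 4.08, 5.31 and 5.29 in the mutants of 13 weeks, and its difference was larger, -2.38 ± 0.32 (adjusted p = 0.000126). Both probe sets were lower in mutant mouse 3 of 9 weeks, at 11.93 and 6.43, than in the other mutants of that age.

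Pvalb, the buffer of fast-spiking interneurons, spread widely among mice of the same group. It read 8.43, 7.56 and 8.43 in control mice, against 8.44, 7.75 and 9.89 in mutant mice at 9 weeks, and 7.35, 9.00 and 9.92 in control mice, against 6.56, 7.28 and 8.73 in mutant mice at 13 weeks. The groups overlapped at both ages. The differences were 0.55 ± 0.72 (95% interval -1.01 to 2.12; adjusted p = 0.719) and -1.23 ± 0.72 (95% interval -2.80 to 0.33; adjusted p = 0.18). Without control mouse 1 of 13 weeks, the lowest control, the second was -1.94 and passed (adjusted p = 0.0372). Without control mouse 3 of 13 weeks it was -0.65 (adjusted p = 0.489), and without mutant mouse 1 of 13 weeks -0.75 (adjusted p = 0.48). Among 5 tested markers of parvalbumin interneurons at 13 weeks 1 fell and 1 rose, beside 21.9% and 23.4% of all genes. The potassium channel gene Kcnc1 fell by 0.97 (adjusted p = 0.0192, or 0.0838 without mutant mouse 2 of 13 weeks). The transcription factor gene Sox6 rose by 1.23 (adjusted p = 0.00311). Sox6 is also made by oligodendrocyte precursors.

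**Figure D2:**
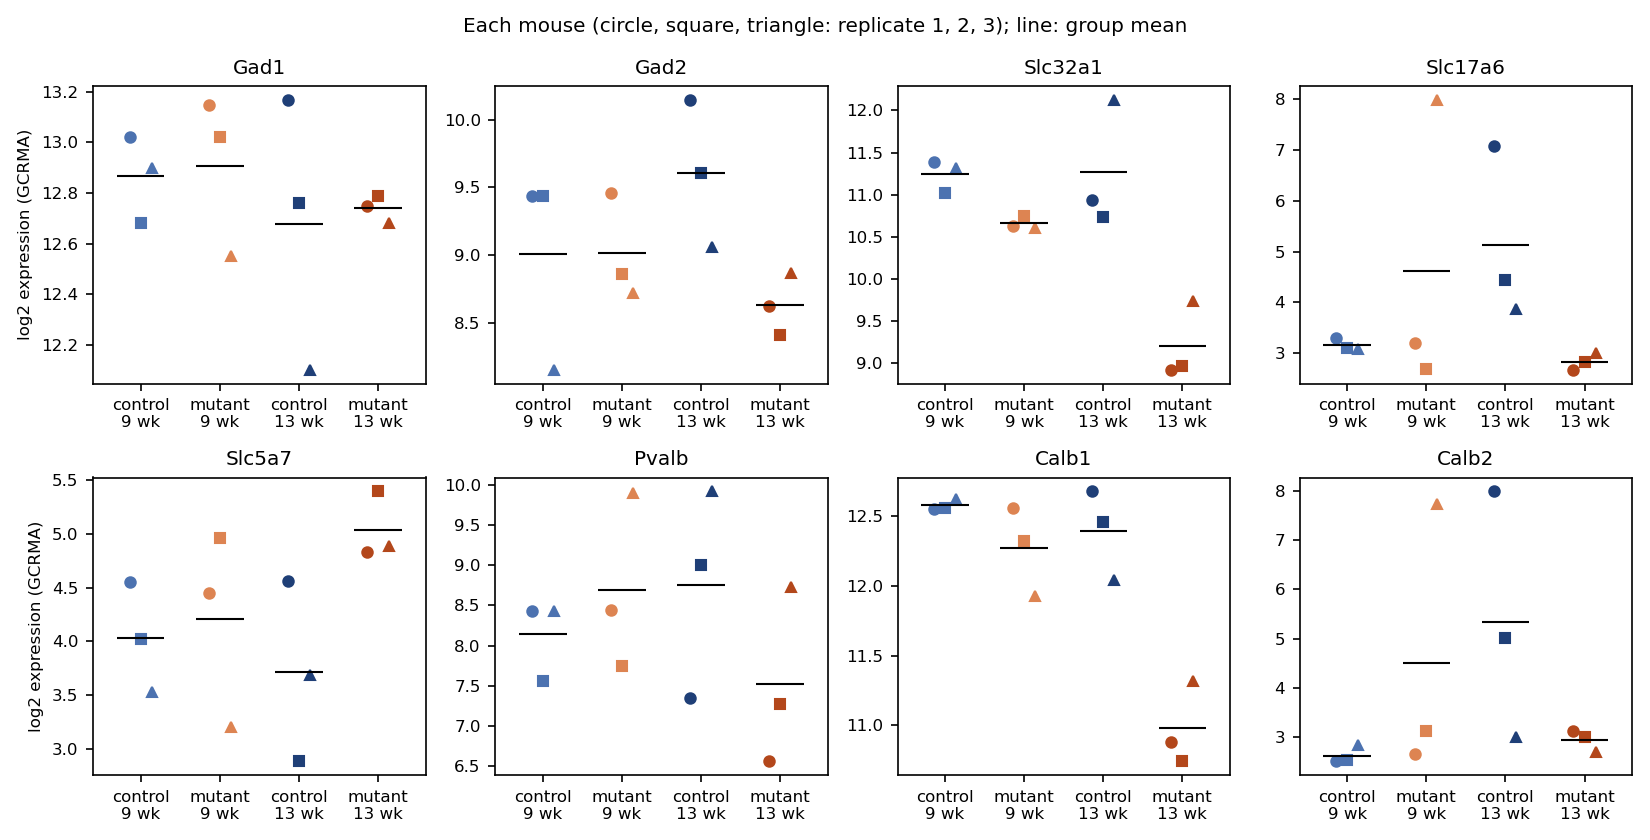
Log2 level of each of the 8 measured genes on the 12 arrays, with the 4 groups along the x axis, bars for group means and a separate y scale in each panel. Slc32a1 and Calb1 were lower in all 3 mutants of 13 weeks than on any other array, and Slc17a6 and Calb2 were high on the same 2 arrays, mutant mouse 3 of 9 weeks and control mouse 1 of 13 weeks.

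Other EF-hand and calcium sensor genes were read from a list of 30, of which 25 were measured and 18 tested. At 9 weeks 1 of them changed, Kcnip2, which encodes a calcium sensor of A-type potassium channels (-1.04 ± 0.25; adjusted p = 0.0384), a call that held in 4 of 12 fits without 1 array (adjusted p up to 0.129, without control mouse 2 of 9 weeks). That 1 of 18 is close to the 5% of all genes that passed at 9 weeks. At 13 weeks 10 fell and 5 rose, with a median of -0.90, beside 21.9% and 23.4% of all genes. Kcnip2 fell by 2.85 (adjusted p = 3.46e-06). Hpca, which encodes the neuronal sensor hippocalcin, fell by 2.56 (adjusted p = 4.12e-05), and Necab2, a calcium-binding gene enriched in striatum, fell by 2.33 (adjusted p = 1.44e-05). Cabp1 fell by 1.97 (adjusted p = 6.26e-05). Pcp4, a calmodulin regulator, fell by 1.58 (adjusted p = 2.74e-05). Those that rose included S100a10 (2.33 ± 0.22; adjusted p = 7.23e-06), S100a1 (2.06 ± 0.28; adjusted p = 0.000119) and S100b, a standard astrocyte marker (0.78 ± 0.24; adjusted p = 0.0201), whose call was lost with median centring (adjusted p = 0.0558) and without control mouse 1 of 13 weeks (adjusted p = 0.0702).

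Slc5a7, the choline transporter of cholinergic neurons, was measured near the low end of the range. Its values were 4.55, 4.02 and 3.53 in control mice, against 4.45, 4.96 and 3.20 in mutant mice at 9 weeks, with a difference of 0.17 ± 0.48 (adjusted p = 0.888). At 13 weeks its values were 4.56, 2.88 and 3.69 in control mice, against 4.83, 5.40 and 4.89 in mutant mice. Each mutant lay above each control, a 2.51-fold rise (1.33 ± 0.48; adjusted p = 0.0398). The call was lost without control mouse 2 of 13 weeks, the lowest of all arrays (adjusted p = 0.143), and in 5 other fits of the 12 that left out 1 array, those without control mouse 2 of 9 weeks, control mouse 3 or any mutant of 13 weeks. It was also lost with quantile normalisation (adjusted p = 0.0653), median centring (adjusted p = 0.0541), no filter (adjusted p = 0.0876) and a term for sex (adjusted p = 0.0611).

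Other cholinergic genes gave a mixed picture. Of 3 tested markers of cholinergic interneurons, none passed limma's test at 13 weeks, nor at an unadjusted p under 0.05: Ache, acetylcholinesterase, differed by -0.38 (adjusted p = 0.363), the lineage factor Lhx8 by 0.07 (adjusted p = 0.795) and Ecel1 by -0.20 (adjusted p = 0.706). The vesicular acetylcholine transporter Slc18a3 was low on all 12 arrays, at 2.16 to 3.51. In the wider list of acetylcholine genes, 18 of 20 were measured and 8 tested. At 9 weeks 1 of them fell, the choline kinase Chka (-0.87; adjusted p = 0.0391), in 3 of 12 fits without 1 array (adjusted p up to 0.148, without control mouse 3 of 9 weeks). At 13 weeks 2 rose and 2 fell, 4 of 8, close to the 45.3% of all genes. The choline transporter-like gene Slc44a2 rose by 2.96 (adjusted p = 4e-06) and Slc44a1 by 1.12 (adjusted p = 0.000826), while the muscarinic receptor Chrm1 fell by 3.53 (adjusted p = 2.52e-06) and Chka by 0.97 (adjusted p = 0.00267). Interneurons of the somatostatin, neuropeptide Y and nitric oxide synthase class were read from 6 genes, of which none passed limma's test at 13 weeks (1 at an unadjusted p under 0.05). Sst differed by -0.04 ± 0.16 (adjusted p = 0.855), Npy by 0.40 ± 0.21 (adjusted p = 0.15) and Nos1 by -0.54 ± 0.23 (adjusted p = 0.0759).

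Read against all genes, the listed genes did not stand out by how many changed. At 9 weeks 0 of 8 passed limma's test (0 also at an unadjusted p under 0.05; 2 with array weights and 1 in a fit of the 2 groups alone), where 5% of all 8256 genes did (2.02% higher, 2.98% lower). Only Slc32a1 of the 8 had groups that did not overlap, against 35.5% of all genes. At 13 weeks 4 of 8 passed, 1 higher and 3 lower, where 45.3% of all genes did (23.4% higher, 21.9% lower). Groups did not overlap for 5 of 8, against 54.6%. The median difference of the 8 was 0.11 at 9 weeks and -1.32 at 13 weeks, and that of all genes -0.02 and 0.0033. These medians include Slc17a6 and Calb2, and the non-overlap count at 13 weeks includes Slc17a6. Both genes passed the filter only through the few arrays where they were high, so these numbers are no result about the set.

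Whether the genotype difference itself grew between the ages was asked with an interaction term. It passed for Calb1 (-1.11 ± 0.31; adjusted p = 0.0264) and for Slc32a1 (-1.48 ± 0.46; adjusted p = 0.045), 2 of 8, where 18.4% of all genes passed (6.38% lower). The size held better than the call. Without 1 array at a time the Calb1 term stayed between -1.28 and -0.96, and passed in 3 of 12 such fits, with an adjusted p of 0.05 to 0.0758 in the others. It passed in all 12 of its other alternatives. The Slc32a1 term stayed between -1.74 and -1.05 and passed in 4 of 12, those without 1 of the controls, or without mutant mouse 3, of 13 weeks, with an adjusted p of 0.0681 to 0.115 in the others. For Gad2 the term was -0.98 (adjusted p = 0.222), and for Slc5a7 1.16 (adjusted p = 0.267), so their 13-week differences were not shown to exceed those at 9 weeks. Among mutants alone, 13 against 9 weeks, Calb1 fell by 1.29 (adjusted p = 0.000789) and Slc32a1 by 1.45 (adjusted p = 0.00514), and 32.7% of all genes passed. Among controls 0 of 8 passed, by limma and at an unadjusted p under 0.05 (2 with array weights), where 0.145% of all genes did (0.0848% higher, 0.0606% lower).

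**Figure D3:**
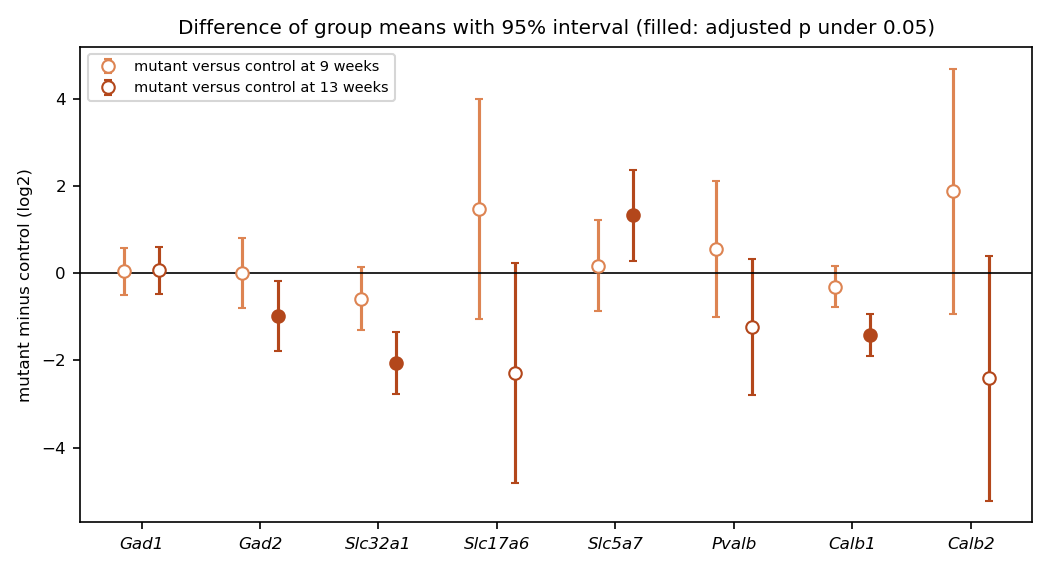
Mutant minus control difference on the log2 scale at 9 and at 13 weeks for the 8 genes, with 95% intervals. At 13 weeks the intervals of Slc32a1 (-2.06), Calb1 (-1.41) and Gad2 (-0.97) lie below 0 and that of Slc5a7 (1.33) above it, and those of Slc17a6 and Calb2 are the widest at both ages.

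The glutamate marker and calretinin were high on single arrays of different groups. Slc17a6 was low in all controls of 9 weeks (3.30, 3.10 and 3.09) and in 2 of the mutants (3.20 and 2.69), and stood at 7.99 in mutant mouse 3. At 13 weeks it was 7.08, 4.44 and 3.87 in control mice, against 2.67, 2.83 and 3.00 in mutant mice. A second probe set gave the same arrays a sharper contrast. It read 7.13 in mutant mouse 3 of 9 weeks and 7.27 in control mouse 1 of 13 weeks, and 2.62 to 2.68 on the other 10 arrays, control mouse 2 of 13 weeks included (2.66).

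Calb2 had the same pattern. It read 2.50, 2.53 and 2.83 in the controls of 9 weeks, and 2.65, 3.11 and 7.74 in the mutants, of which mouse 3 was again the high one. At 13 weeks it read 8.0, 5.01 and 3.00 in controls, with mouse 1 the highest, and 3.11, 2.99 and 2.69 in mutants. Of all 8256 genes kept, Slc17a6 and Calb2 had the 2 largest gaps over the next array of the group on both of these arrays. Over all 12393 genes, Oxt (7.33) and Avp (7.01) had larger gaps on the first and Sln (4.44) on the second, genes that the filter removed.

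No group difference passed for either gene. At 13 weeks the difference was -2.30 ± 1.15 for Slc17a6 (95% interval -4.82 to 0.22; adjusted p = 0.124), whose groups did not overlap, and -2.41 ± 1.29 for Calb2 (95% interval -5.22 to 0.40; adjusted p = 0.147). At 9 weeks it was 1.46 ± 1.15 (adjusted p = 0.513) and 1.88 ± 1.29 (adjusted p = 0.444). Slc17a6 stood above the percentile only on the 3 controls of 13 weeks and on mutant mouse 3 of 9 weeks, so at 13 weeks it could be tested only through the group where it was high. On the second probe set, controls 2 and 3 of that age (2.66 and 2.68) read like the mutants (2.62 to 2.65). Both high arrays were also left out, an alternative chosen after the values were seen. Slc17a6 then differed by -0.22 at 9 weeks (adjusted p = 0.64) and by -1.32 at 13 weeks (adjusted p = 0.00116). The second value passed, but against mutants that were all low, and is no measure of a change. Leaving out 1 array, Slc17a6 at 13 weeks passed in 1 of 12 fits, without mutant mouse 3 of 9 weeks. The difference there was still -2.30, with a smaller SE of 0.63 (adjusted p = 0.0132). Calb2 at 13 weeks was -1.08 (adjusted p = 0.481) without control mouse 1, and -3.58 (adjusted p = 0.0384) without control mouse 3, the only 1 of 12 such fits in which it passed.

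Some other genes were high on only 1 of those arrays. The genes named in this paragraph were chosen after their values were seen. On mutant mouse 3 of 9 weeks Oxt and Avp, which encode the hypothalamic hormones oxytocin and vasopressin, read 8.60 and 9.35. On the other 11 arrays they were low, at 1.24 to 1.30 and 2.18 to 2.57. Cbln1, a synaptic organiser made in thalamus and cerebellum, read 6.60 there and 2.00 to 3.52 elsewhere. Dcx, which encodes doublecortin of migrating neuroblasts, read 7.0 there and 4.47 to 5.91 elsewhere, and Dlx1, a GABAergic lineage factor, 8.57 and 6.60 to 7.62. On control mouse 1 of 13 weeks Oxt, Avp and Cbln1 were low, and Dcx and Dlx1 lay within the range of the other arrays. That array instead held Sln, which encodes sarcolipin, at 6.50 against 1.99 to 2.06 on the other 11 arrays, and Zic1, a transcription factor of septum and medial forebrain, at 9.24. Zic1 read 7.91 in mutant mouse 3 of 9 weeks and 6.56 to 7.65 on the other 10.

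**Figure D4:**
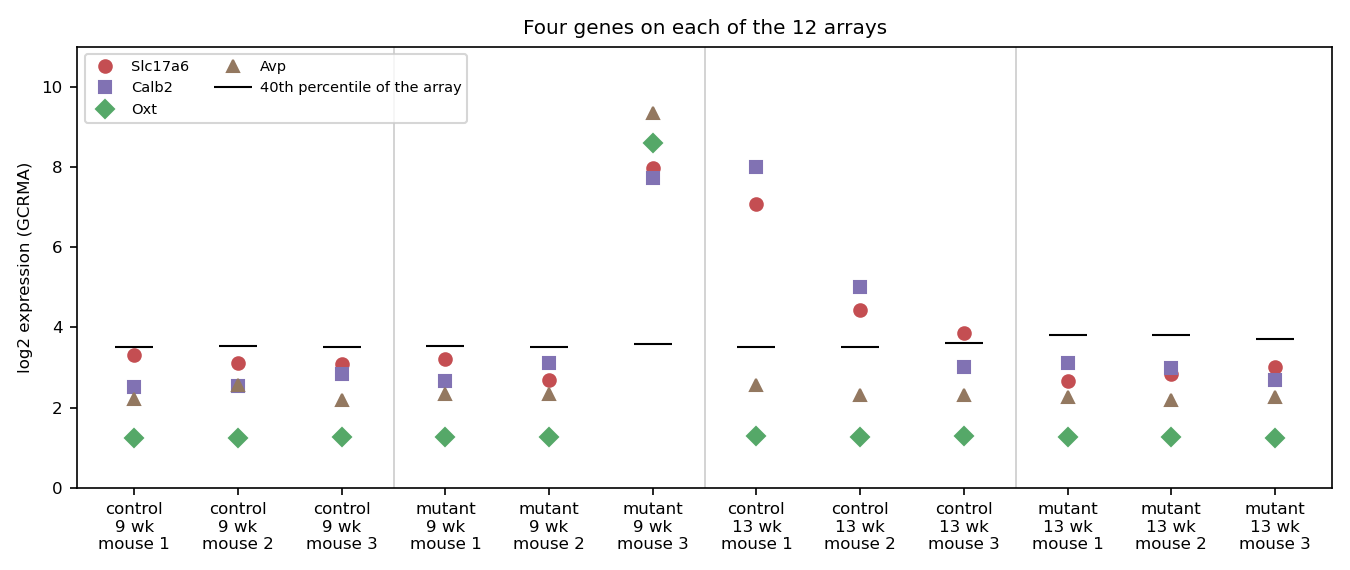
Log2 levels of Slc17a6, Calb2, Oxt and Avp on each of the 12 arrays, with a black bar at the 40th percentile of each array. Oxt (8.60) and Avp (9.35) were above the bar in mutant mouse 3 of 9 weeks only, while Slc17a6 and Calb2 were highest there and in control mouse 1 of 13 weeks.

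Lists of markers for neighbouring regions were read on the same arrays. Of 14 hypothalamic markers 11 were measured, and the log2 of their summed signal was 10.4 in mutant mouse 3 of 9 weeks against 6.57 to 7.54 on the other 11 arrays. The sum was carried by few genes. Besides Avp and Oxt, Trh was raised there, at 5.70, and Baiap3, at 7.32, both more than 1 log2 unit above the other mutants. Trh and Baiap3 were 2 of 4 hypothalamic markers that passed the filter, and 1.6% of all genes lay as far above. Pomc (4.39) and Gal (4.52) lay 0.81 and 0.72 above the higher of the other mutants. Otp (1.54) and Sim1 (2.46), transcription factors of the oxytocin and vasopressin neurons, were low there as on the other mutants of that age. Hcrt (2.01), Ghrh (2.27) and Nr5a1 (2.49), markers of other hypothalamic cells, were low too. For 14 measured thalamic markers of 16, the log2 sum was 10.3 in control mouse 1 of 13 weeks, 9.75 in mutant mouse 3 of 9 weeks and 9.23 to 9.94 elsewhere. Much of the first sum came from Zic1, which stands on the septal list as well. Without it, a choice made after the values were seen, the sums were 9.28 and 9.28, inside the 8.87 to 9.79 of the other 10 arrays. On mutant mouse 3 of 9 weeks 2 of 9 thalamic markers that passed the filter, Ramp3 and Patj, lay at least 1 log2 unit above the other mice of the group, as did 1.6% of all genes. On control mouse 1 of 13 weeks these were Tcf7l2 and Zic1, against 0.339% of all genes. Tcf7l2 read 5.25 there and 3.98 to 5.14 on the other 11 arrays, nearly as high in mutant mouse 1 of 13 weeks. On the same control array 1 of 7 cortical markers (Ccn3) and 1 of 3 septal markers (Zic1 again) lay as far above. Ccn3 read 5.91 there and 3.12 to 5.95 elsewhere, highest in mutant mouse 3 of 13 weeks. The cortical sum of control mouse 1 of 13 weeks was the highest of all, 11.7 against 10.6 to 11.6, but Lamp5 alone read 11.44 there and 8.75 to 11.49 elsewhere. Neurod6, a cortical marker that the filter removed, was also highest there, at 4.17 against 2.91 to 3.76. The septal sum of control mouse 1 of 13 weeks, 10.13, lay under the 10.67 to 11.01 of the mutants of 13 weeks. In those mutants Nts, on the septal list, read 10.50 to 10.84. That sum lay above the 8.48 to 10.05 of the remaining arrays, which included all other controls. The part of neighbouring tissue in the Slc17a6 and Calb2 values was not tested beyond these levels.

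For the group results, region markers were read as well. Of 7 tested markers of the pallidum, 5 fell in the mutants of 13 weeks (21.9% of all genes fell), among them Syt2, a synaptotagmin of fast-firing neurons (-2.62; adjusted p = 0.000733), and Nefm, a neurofilament subunit (-1.30; adjusted p = 0.00163). The log2 sum of 9 pallidal markers was 12.7 to 12.9 in controls and 11.4 to 12.2 in mutants. Cplx1 alone read 11.93 to 12.33 in those controls and 10.71 to 11.70 in those mutants, so few genes carried the sum. Nkx2-1 (1.83 to 1.92) and Npas1 (2.19 to 2.27) were low on all 12 arrays. Lhx6 (adjusted p = 0.169) and Lhx8 (adjusted p = 0.795) did not pass limma's test at 13 weeks. Of 9 tested thalamic markers 2 fell and 1 rose, and of 7 cortical markers 2 rose and 1 fell, shares no larger than the 45.3% of all genes. In glutamate handling, 11 of 15 listed genes were measured and tested. At 9 weeks 2 of them fell, where 2.98% of all genes did. The aspartate aminotransferase Got1 fell by 1.03 (adjusted p = 0.0372) and the mitochondrial glutamate carrier Slc25a22 by 0.59 (adjusted p = 0.0444). Those calls held in 5 and 3 of 12 fits without 1 array, with an adjusted p up to 0.125 (without mutant mouse 2 of 9 weeks) and 0.157 (without control mouse 1 of 9 weeks). At 13 weeks 5 rose and 4 fell (median 0.42), beside 23.4% and 21.9% of all genes. Among them, Slc38a3 and Slc1a1 were also counted with the GABA genes, and Slc1a2 and Slc1a3 with the astrocyte markers. Of the rises, Glud1 passed in 4 of 12 fits without 1 array and not with median centring (adjusted p = 0.157), and Slc38a2 in 2 of 12 and not with median centring (adjusted p = 0.0688). The astrocytic glutamate transporters Slc1a2 (1.60 ± 0.25; adjusted p = 0.000286) and Slc1a3 (1.51 ± 0.17; adjusted p = 3.32e-05) rose, and Got1 fell by 1.60 (adjusted p = 0.000248).

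Genes that varied most like each listed gene were sought as correlations of deviations from the group means over the 12 arrays, which share all 4 group means and any array-wide shift. They are descriptions. Slc17a6 was closest to Ngb, the neuroglobin gene (r = 0.97, rho = 0.77, and r = 0.94 without the 2 arrays farthest from the median), and next to Calb2 (r = 0.95, rho = 0.74, and 0.85 without them). Calb2 was closest to Pnoc, which encodes prepronociceptin (r = 0.99, rho = 0.95, and 0.97 without them). For both genes the arrays left out were mutant mouse 3 of 9 weeks and control mouse 1 of 13 weeks. The group means still included them, so the other mice of those groups kept deviations set by them. The values without them therefore cannot show a likeness apart from these 2 arrays. Ngb read 5.41 and 4.40, and Pnoc 4.95 and 5.79, in mutant mouse 3 of 9 weeks and control mouse 1 of 13 weeks. Pvalb was closest to Vamp1, a vesicle protein gene of fast-firing neurons (r = 0.96, rho = 0.96). Slc32a1 was closest to Gabbr1, a GABA-B receptor subunit (r = 0.98, rho = 0.97). Gabbr1 was highest, at 12.44, in control mouse 3 of 13 weeks, where Slc32a1 was highest too. Gad1 was closest to 2610301B20Rik (r = 0.996, rho = 0.98), which was lowest on that same array, at 7.91. Calb1 was closest to Napg (r = 0.98, rho = 0.98), Gad2 to Btbd3 (r = 0.97, rho = 0.95) and Slc5a7 to Abcb1a, a drug efflux pump of brain endothelium (r = 0.92, rho = 0.91). The next 2 were Matr3 (r = 0.99) and Armcx1 (r = 0.99) for Gad1, Ergic2 (r = 0.91) and Purb (r = 0.90) for Gad2, and Cbarp (r = 0.98) and Runx1t1 (r = 0.98) for Slc32a1. They were Mta3 (r = 0.95) and Rfng (r = 0.94) for Pvalb, Stk26 (r = 0.97) and Gria3 (r = 0.96) for Calb1, and Ghitm (r = 0.92) and Crabp2 (r = 0.91) for Slc5a7. After those named above came Resp18 for Slc17a6 (r = 0.95) and Slc17a6 and Ngb (r = 0.93) for Calb2. Without the 2 arrays farthest from the median, but with group means that included them, r stayed between 0.82 and 0.99 for all of these. Because of those means, this is no test of likeness without the 2 arrays.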

How the data were processed

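Expression was measured on Affymetrix arrays of total RNA from 12 striata, 3 per group, each mouse 1 array. The authors deposited log2 expression values of 22690 probe sets, made with GCRMA per the submitters' processing notes (version not given in the sources used here), so probe-level corrections were fixed upstream and low values lie near a floor. Array data carry no counts. The number of arrays limits the precision. Probe sets were named from the platform annotation: 20380 had 1 symbol, 691 several, 1555 none, and 64 were controls. Of a gene's probe sets, the one with the highest mean was used. Group means were fitted over all 12 arrays with limma 3.58.1 in R 4.3.3 (8 residual degrees of freedom), p-values were adjusted by Benjamini-Hochberg over 8256 genes, and an adjusted p under 0.05 counted as past the test. Fold changes are the power of 2 of these differences. The fit was tested on simulated data. The members and lists were chosen with earlier results of these data known. Some genes stand on more than 1 list, among them Slc38a3, Slc1a1, Slc1a2, Slc1a3, S100b, Kcnip2, Kcnc1, Lhx6 and Zic1. Counts of different lists are therefore not separate observations. By rule, the named genes were the members, Rrn3, up to 4 genes per list past the test with the largest differences, the 3 per region list with the largest gap of an array over the median, and the 3 most like each member. Any other gene named was chosen after its values were seen. Same-numbered arrays were not paired: 5 of 18 same-number pairs had a correlation of deviations over 0.1. Nothing in the labels ties mice of different groups together. Alternatives are in the closing section.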

Additional observations from a re-analysis of the deposited data

Results flagged for a closer look

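For 2 genes the genotype difference itself differed between the ages by an interaction test, with calls that some settings ended. The difference at 13 weeks minus that at 9 weeks was -1.11 for Calb1 (SE 0.31; limma interaction term, adjusted p = 0.0264) and -1.48 for Slc32a1 (SE 0.46; adjusted p = 0.045). For Calb1 the mutants lay 0.31 below the controls at 9 weeks and 1.41 below them at 13 weeks. For Slc32a1 they lay 0.58 and 2.06 below. All 3 mutants of 13 weeks were lower than all 3 controls for both genes. At 9 weeks the same held for Slc32a1 only. The Slc32a1 call was lost with no filter (adjusted p = 0.0922), with the mean of the probe sets (adjusted p = 0.0581), without both arrays on which Slc17a6 and Calb2 were highest (adjusted p = 0.0572) and in 8 of 12 fits that left out 1 array. The Calb1 call was lost in 9 of those 12.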

How the results depend on the processing

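The listed genes were refitted under 13 alternatives and without each of the 12 arrays in turn. The falls of Slc32a1 and Calb1 at 13 weeks, and within the mutants over age, passed in every fit run. Of the listed genes 4 passed at 13 weeks, 2 with no filter, 2 with a term for sex and 7 with array weights (2 to 4 leaving out 1 array). For the interaction 2 passed, 1 with no filter, 1 with the mean of the probe sets and 4 with array weights (0 to 3 leaving out 1 array). At 9 weeks 0 passed, 2 with array weights and 1 with only the groups compared (0 leaving out 1 array). Between controls 0 passed, and 2 with array weights. The array weights were far apart, from 0.0587 for control mouse 3 of 13 weeks to 23.7 for mutant mouse 2 of 9 weeks, and their estimate stopped before converging. Over all genes at 9 weeks 413 passed, 194 without both high arrays, 1050 with only the groups compared and 3833 with array weights (62 to 1358 leaving out 1 array). For the interaction 1523 passed, 4301 with array weights. Between controls 12 passed, 0 with only the groups compared or without both high arrays, 59 with no filter and 1926 with array weights (0 to 25 leaving out 1 array). Between mutants 2700 passed, and 5753 with array weights. Median centring shifted the differences of all genes by a median of -0.163 at 13 weeks, -0.138 for the interaction and -0.152 between mutants, and the share of higher among called genes at 13 weeks was 39.5% in place of 51.6%, for the interaction 53.4% in place of 65.4%, between mutants 35% in place of 49.3%, and between controls 70% in place of 58.3% (72.7% with quantile normalisation).

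Signs turned as follows. With median centring Gad2 at 9 weeks was -0.0217, Gad1 at 13 weeks -0.10 and the Gad1 interaction -0.115. With the mean of the probe sets Gad1 was -0.17 at 9 weeks, -0.33 at 13 weeks and -0.165 for the interaction, and on the other probe set -0.38, -0.73 and -0.35. Between controls the other probe sets gave 0.05 for Gad1 and 0.097 for Calb1. With array weights Gad2 (-0.12), Slc17a6 (-0.41) and Pvalb (-0.37) turned at 9 weeks, Gad1 at 13 weeks (-0.0385) and for the interaction (-0.18), Slc32a1 between controls (-0.47) and Slc17a6 between mutants (0.014). Without both high arrays Slc17a6 (-0.22) and Pvalb (-0.045) turned at 9 weeks and Calb2 between mutants (0.05). Leaving out 1 array, the ranges that crossed 0 at 9 weeks were -0.082 to 0.22 for Gad1, -0.43 to 0.22 for Gad2, -0.05 to 1.03 for Pvalb, -0.22 to 2.43 for Slc17a6 and -0.21 to 0.67 for Slc5a7. At 13 weeks it was -0.23 to 0.31 for Gad1, and for its interaction -0.27 to 0.27. Between controls they were -0.44 to 0.10 for Gad1, -0.40 to 0.29 for Slc32a1 and -0.75 to 0.092 for Slc5a7, and between mutants -2.50 to 0.05 for Calb2. The cause was not tested.

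With the replicate number as a block 4 listed genes passed at 13 weeks, 0 at 9 weeks, 2 for the interaction, 0 between controls and 2 between mutants, as without it, and over all genes 435 passed at 9 weeks, 3842 at 13 weeks and 3 between controls. Of 12 arrays, 9 correlated best with an array of their own number in another group, with pairwise correlations of -0.135 to 0.302, a hint from the data, not the design. A fit of the groups compared alone was not run for the interaction, which uses all 4. Slc17a6, Calb2 and Slc5a7 have no value under the stricter filter, which removes them.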
